A study of Mus musculus with 6 samples.

Results

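The Ms4a genes encode small proteins that cross the cell membrane several times and sit mainly on white blood cells. The genes described here were taken by symbol from the deposited expression table, 10 of its 18849 genes: Ms4a1, Ms4a2, Ms4a4a, Ms4a4b, Ms4a4c, Ms4a4d, Ms4a6b, Ms4a6c, Ms4a6d and Ms4a7. All 10 symbols were found, and 7 of them passed the filter on low values. The family was picked with earlier results of the same knockout comparison known, Ms4a7 among them, so the differences between the genotypes are given as a description and are not independent evidence.

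Whole-kidney RNA of male C57BL/6 mice, 8 weeks old, was sequenced 14 days after unilateral ureteral obstruction (UUO), in which a tied ureter damages the tubules, draws in leukocytes and scars the kidney. The 3 control libraries came from c-Abl flox/flox mice, whose Abl1 gene is flanked by loxP sites and intact (their genotype label reads WT), and the 3 knockout libraries from c-Abl Epi-cKO mice, which also carry Ksp-Cre (their genotype label reads c-Abl knockdown). Both groups had the obstruction, and unobstructed kidneys were not analysed here. Ksp-Cre is driven by the promoter of kidney-specific cadherin and acts in tubule epithelium, so the leukocytes that carry Ms4a proteins are not the cells it targets. No label ties a library to its own animal, so the p-values speak only for the scatter among these 6 samples, which may be technical.

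Several Ms4a proteins are known for a particular blood cell. Ms4a1 is CD20, the surface protein of B cells that antibody drugs target. Ms4a2 is the beta chain of the high-affinity IgE receptor of mast cells and basophils. Ms4a4b is a T cell protein that associates with the costimulatory receptor GITR (Tnfrsf18). Ms4a4a, Ms4a6d and Ms4a7 are known from macrophages, where Ms4a4a associates with the fungal sugar receptor dectin-1 (Clec7a). The genes lie side by side in a cluster that grew by duplication, which is why several of them are close copies.

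Values are FPKM, fragments per kilobase of gene scaled to the library's mapped fragments, as the authors deposited them. Values of a group are given in the order of replicates 1, 2 and 3. A log2 fold change is the knockout mean minus the floxed mean of log2(FPKM + 1), with its standard error (SE), and it understates the change of low genes. Tests were limma fits over the 13390 genes that reached 1 FPKM in 3 or more libraries, with Benjamini-Hochberg adjustment over all of them at 0.05. In whole tissue, fewer cells of a type and less RNA per cell cannot be told apart. The spacing of low values put the depth at 16050000 to 18100000 fragments per library, an approximate figure.

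Several libraries stood apart before any Ms4a gene was read. On the first principal component (61.8% of the variance) knockout replicate 3 lay at -7.48, nearer the floxed libraries (-29.0 to -26.2) than the other knockout libraries (37.4 and 54.1). Floxed replicate 1 carried more lymphocyte RNA than the other 5 libraries. Its summed FPKM over 14 T cell markers was 177, against 38.8 to 53.9 elsewhere, and over 10 B cell markers 106, against 9.64 to 25.1 elsewhere. Neutrophil markers summed to 454 in floxed replicate 2 and to 71.7 and 75.8 in the other floxed libraries, and to 14.8, 115 and 277 in knockout replicates 1, 2 and 3. The targeted gene Abl1 read 18.16, 15.93 and 17.33 FPKM in the floxed kidneys, against 10.46, 14.45 and 12.91 in the knockouts (limma adjusted p = 0.144). Its groups did not overlap, as in 21.7% of all tested genes on the lower side. That checks the labels only loosely, also because Ksp-Cre spares most non-tubular cells and the deleted part need not lower a whole-gene value. Cdh16, whose promoter drives the Cre, averaged 216 ± 17.3 FPKM in floxed and 321 ± 61.0 FPKM in knockout libraries (SD, n = 3 each, limma adjusted p = 0.118).

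In floxed kidneys Ms4a6c was the most abundant of the 10 genes at 39.4 ± 5.79 FPKM (SD, n = 3), followed by Ms4a7 at 34.7 ± 6.49, Ms4a6d at 24.3 ± 8.29 and Ms4a6b at 20.2 ± 3.53 FPKM. Ms4a4b stood at 18.2 ± 18.2, Ms4a4a at 13.4 ± 6.41 and Ms4a4c at 6.73 ± 0.201 FPKM. Ms4a4d (1.59 ± 1.10), Ms4a1 (1.26 ± 1.89) and Ms4a2 (0.323 ± 0.280 FPKM) lay at the bottom. Neighbours in this order overlapped in their 3 floxed values, except Ms4a4a with Ms4a4c and Ms4a4c with Ms4a4d. In knockout kidneys Ms4a6c still led at 22.1 ± 9.03 FPKM, and Ms4a7, at 11.0 ± 0.777 FPKM, came after Ms4a6d at 12.5 ± 8.59 FPKM. The 10 genes together summed to 165, 175 and 140 FPKM in the floxed kidneys, against to 58.2, 67.0 and 107 in the knockouts. Every knockout total lay below every floxed total, with knockout replicate 3 the highest of its group.

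**Figure D1:**
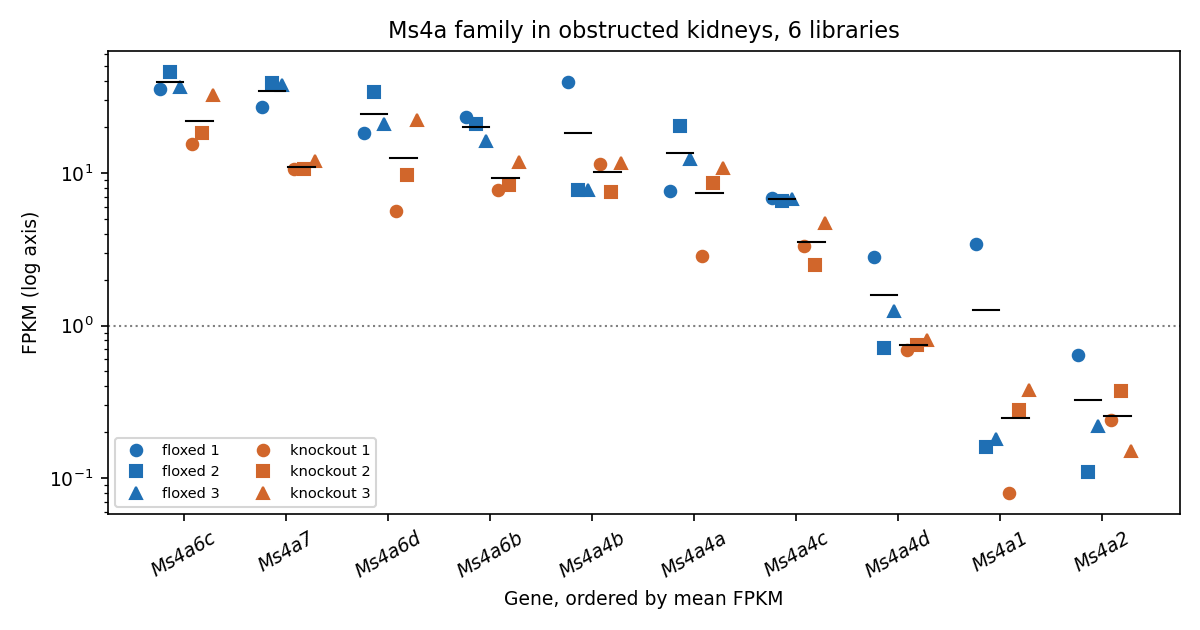
FPKM of the 10 Ms4a genes on a log axis, ordered by mean, in 3 floxed (blue) and 3 knockout (orange) libraries; the symbol shape gives the replicate number, the black bar the group mean and the dotted line 1 FPKM. The 3 knockout values of Ms4a7 sit together between 10.57 and 11.93 FPKM, while those of Ms4a6d run from 5.61 to 22.11 FPKM and floxed replicate 1 is highest of all libraries for Ms4a4b, Ms4a1, Ms4a4d and Ms4a2.

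Ms4a7 fell in knockout kidneys. It read 27.27, 38.99 and 37.98 FPKM in the floxed kidneys, against 10.57, 10.6 and 11.93 in the knockouts. The groups did not overlap, and the 3 knockout libraries were almost level. The mean was 68.2% lower in knockout kidneys (log2 fold change -1.56, SE 0.161, limma adjusted p = 0.0446). It was the single member of 7 tested that passed, beside 0.0373% of all tested genes that passed as lower (0.0672% in either direction), and it ranked 8 of 13390 by p. The call sits at the edge of the threshold. It held in 3 of 13 other settings. Over all 13 the limma adjusted p ranged from 0.00436 to 0.213 and the log2 fold change from -1.72 to -1.40. It was lost, for example, without floxed replicate 2 (limma adjusted p = 0.180) and without knockout replicate 2 (0.213), as well as without floxed replicate 3 (0.211) or knockout replicate 1 (0.152).

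Ms4a6d, Ms4a4a and Ms4a6c were lower on average but less evenly. Ms4a6d read 18.37, 33.81 and 20.84 FPKM in the floxed kidneys, against 5.61, 9.71 and 22.11 in the knockouts. Knockout replicate 3 thus lay within the floxed range, and the gene did not pass (log2 fold change -1.06, SE 0.455, limma adjusted p = 0.208). Ms4a4a read 7.62, 20.3 and 12.38 FPKM in the floxed kidneys, against 2.86, 8.66 and 10.82 in the knockouts. Its groups overlapped widely, with floxed replicate 1 below 2 of the knockout values (log2 fold change -0.83, SE 0.484, limma adjusted p = 0.318). Ms4a6c read 35.71, 46.09 and 36.44 FPKM in the floxed kidneys, against 15.51, 18.35 and 32.38 in the knockouts. Its groups did not overlap, though knockout replicate 3 came close to the floxed values (log2 fold change -0.87, SE 0.267, limma adjusted p = 0.122).

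Ms4a6b and Ms4a4c are close copies of Ms4a6c and Ms4a4b. Ms4a6b read 23.21, 21 and 16.29 FPKM in the floxed kidneys, against 7.79, 8.31 and 11.82 in the knockouts. All its knockout values lay below the floxed ones, yet it did not pass (log2 fold change -1.04, SE 0.197, limma adjusted p = 0.0627). Ms4a4c was nearly constant in floxed kidneys, at 6.9, 6.51 and 6.79 FPKM, and read 3.34, 2.51 and 4.67 FPKM in knockout replicates 1, 2 and 3. It too was lower in each knockout library without passing (log2 fold change -0.81, SE 0.191, limma adjusted p = 0.0842).

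Over the 7 tested members the median log2 fold change was -0.87, beside -0.12 over all genes tested. All 7 were below 0, as were 65.4% of all tested genes, and in 4 of 7 the knockout values lay wholly under the floxed ones, as in 21.7% of tested genes (31.7% were separated in either direction). Of all 10 members, filter aside, 4 showed that separation, beside 18.7% of the 18849 genes. These counts describe the family and carry no test. Median-ratio scaling, which brings the libraries to a common centre, moved the median of all genes to 0.02 and that of the 7 members to -0.71, a shift of all genes nearly alike.

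The knockout libraries differed from each other more for some members than for others. Relative to the floxed mean, the median member stood at -1.28, -1.14 and -0.27 in knockout replicates 1, 2 and 3 on the log2 scale. Ms4a7 stood at -1.61, -1.61 and -1.45, a spread of 0.16. Ms4a6d had the widest spread, 1.81, and reached -0.08 in knockout replicate 3. Among 16 tested macrophage markers that spread ran from 0.30 (Aif1) to 2.42, with a median of 0.89, and none of the 16 was as low against the floxed mean in knockout replicate 3 as Ms4a7 was. Genes of other lists were lower there, among them the fibroblast genes Tcf21 (-1.80) and Dpt (-1.68) and the relative Ms4a14 (-1.46). Ms4a7 was picked with this contrast known, which favours a gene low in every knockout library. Without knockout replicate 3, 5 of the 7 tested members passed as lower (Ms4a4c, Ms4a6b, Ms4a6c, Ms4a6d and Ms4a7), beside 15.4% of all genes. In either direction 24.4% of all genes passed without that library.

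**Figure D2:**
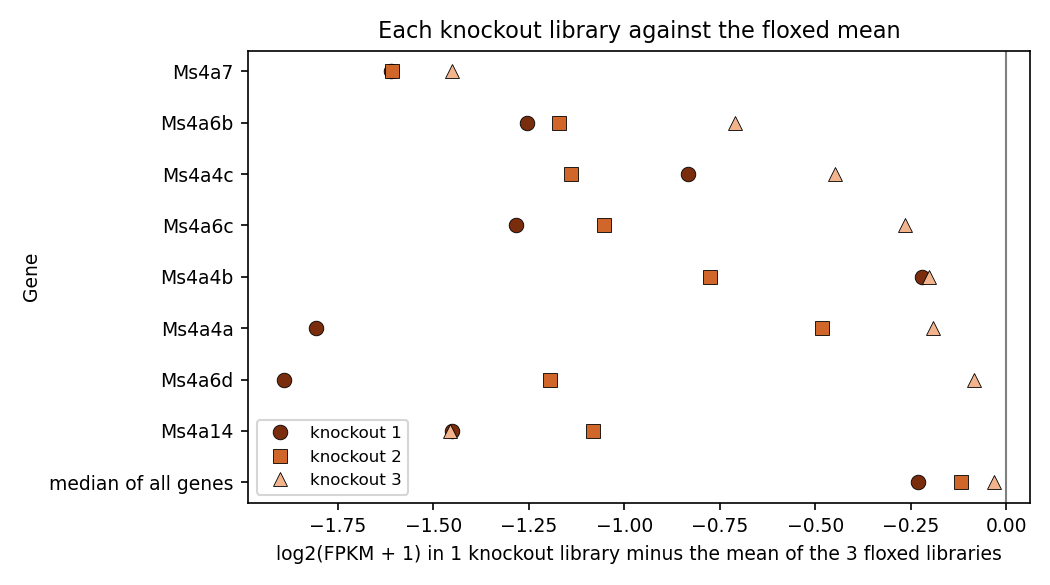
Log2(FPKM + 1) of each knockout library minus the mean of the 3 floxed libraries, for the 7 tested Ms4a genes, Ms4a14 and the median of all genes tested; symbols mark knockout replicates 1, 2 and 3. For Ms4a7 the 3 symbols lie between -1.61 and -1.45, whereas for Ms4a6d they run from -1.89 to -0.08.

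Macrophage markers were lower in the same libraries. Of 20 listed genes, 16 were tested and 15 lay below 0, with a median of -1.04. Of all tested genes 65.4% lay below 0, with a median of -0.12. No macrophage marker passed limma after adjustment, and 12 had an unadjusted p under 0.05, all lower, as did 16.3% of all tested genes on the lower side. Without knockout replicate 3, 13 passed as lower, beside 15.4% of all tested genes. The summed FPKM of the list was 2030.25 to 2813 in floxed and 832 to 1654 in knockout libraries. The smallest p-values belonged to Aif1 (72.84, 59.85 and 53.21 against 29.82, 27.48 and 33.98 FPKM, limma adjusted p = 0.0547), the complement gene C1qc (214.04, 274.53 and 245.17 against 98.01, 86.53 and 145.44 FPKM, limma adjusted p = 0.0599) and Adgre1, which encodes F4/80 (17.02, 25.79 and 24.51 against 9.8, 9.45 and 12.43 FPKM, limma adjusted p = 0.0627).

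Set against these markers, the Ms4a genes took different positions. The log2 level of Ms4a6c minus the mean of the 20 macrophage genes was 0.68, 0.85 and 0.67 in the floxed kidneys, against 0.41, 0.62 and 0.77 in the knockouts. Those values overlap, so Ms4a6c stayed close to the macrophage list in both genotypes. For Ms4a4c the difference was -1.64 in floxed and -1.72 in knockout libraries on average. Ms4a7 stood at 0.30, 0.62 and 0.72 above the list in floxed but at -0.10, -0.11 and -0.60 in knockout replicates 1, 2 and 3. The knockout minus floxed difference of that position was -0.82 for Ms4a7 on the log2 scale, -0.32 for Ms4a6d, -0.31 for Ms4a6b, -0.13 for Ms4a6c, -0.09 for Ms4a4a and -0.07 for Ms4a4c. The groups did not overlap for Ms4a7. The list mean takes in Cd163, Timd4, Lyve1 and Cd209f, which lay below the filter and differed by only -0.23 to -0.03. The 16 tested markers had a median log2 fold change of -1.04. Those of Ms4a6d (-1.06) and Ms4a6b (-1.04) lay near that median, that of Ms4a7 (-1.56) below it, and those of Ms4a6c, Ms4a4a and Ms4a4c above it. Within the family the FPKM ratio of Ms4a7 to Ms4a6c was 0.764, 0.846 and 1.04 in the floxed kidneys, against 0.682, 0.578 and 0.368 in the knockouts, every knockout ratio being the lower. The ratio of Ms4a7 to Ms4a6d was 1.48, 1.15 and 1.82 in the floxed kidneys, against 1.88, 1.09 and 0.540 in the knockouts. For that ratio the groups overlapped, and knockout replicate 1 was the highest library. This contrast chose Ms4a7, so these differences are a description and carry no test.

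Ms4a4b and Ms4a1 followed lymphocytes. Ms4a4b read 39.27, 7.73 and 7.7 FPKM in the floxed kidneys, against 11.46, 7.48 and 11.61 in the knockouts. One library, floxed replicate 1, stood far above the other 5, whose values overlapped between the genotypes (log2 fold change -0.40, SE 0.585, limma adjusted p = 0.679). Without that library the log2 fold change turned to 0.34 (limma adjusted p = 0.414). Its level minus the mean of the T cell list was 1.85, 1.21 and 1.23 in the floxed kidneys, against 1.78, 1.36 and 1.62 in the knockouts, on the log2 scale, so the gene and the list were high together in floxed replicate 1. Ms4a1 read 3.44, 0.16 and 0.18 FPKM in the floxed kidneys, against 0.08, 0.28 and 0.38 in the knockouts. For a transcript of 3075 nucleotides this amounts to about 171 fragments in floxed replicate 1 and about 4.10 to 18.8 in each other library. CD20 message was thus close to the detection limit in 5 of 6 kidneys, and its group means (1.26 and 0.247 FPKM) differ through 1 library.

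**Figure D3:**
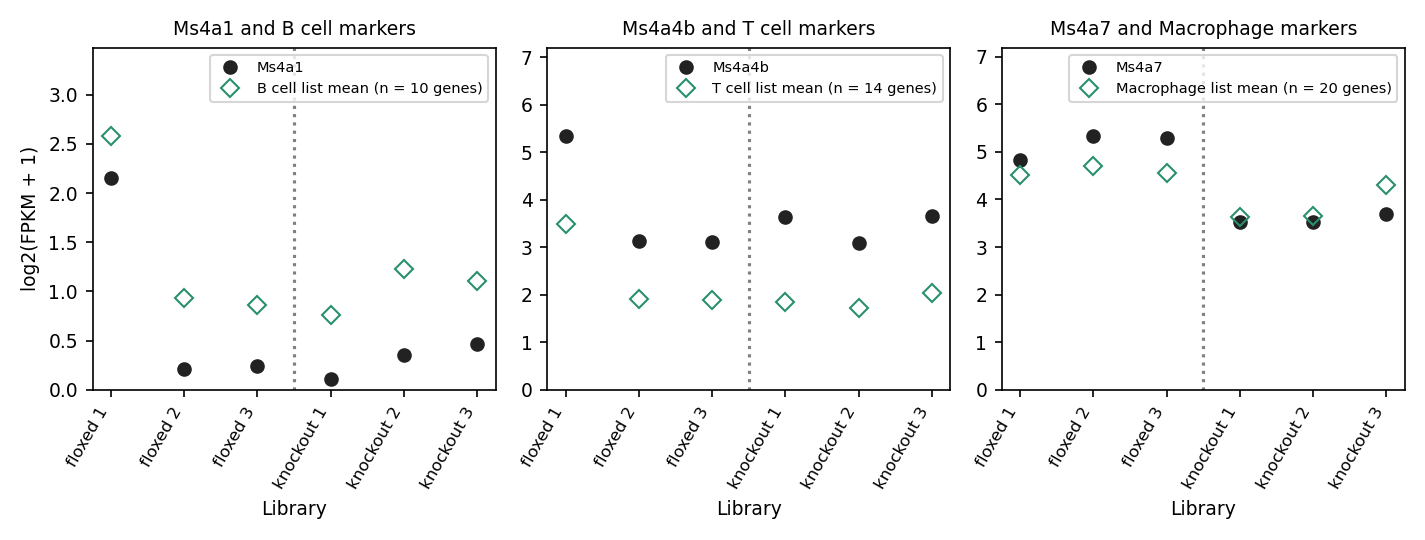
Log2(FPKM + 1) of a member (filled circles) and the mean of its marker list (open diamonds) in each library, floxed left and knockout right of the dotted line, for Ms4a1 with 10 B cell genes, Ms4a4b with 14 T cell genes and Ms4a7 with 20 macrophage genes. Both Ms4a1 and Ms4a4b peak with their lists in floxed replicate 1, while Ms4a7 lies above its list in the 3 floxed libraries and below it in the 3 knockout libraries.

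The lymphocyte lists gave no call. Of 14 T cell genes 11 were tested, with a median of -0.60, and of 10 B cell genes found 4 were tested, with a median of -0.47. None passed limma. At an unadjusted p under 0.05 there was 1 T cell gene, the coreceptor Cd4, and no B cell gene. Of all tested genes 16.3% reached that on the lower side. Cd4 read 14.08, 5.2 and 5.17 FPKM in the floxed kidneys, against 1.97, 2.63 and 2.53 in the knockouts (limma adjusted p = 0.101). Its knockout values were also below floxed replicates 2 and 3, unlike those of Ms4a4b. The B cell receptor chain Cd79a read 54.7, 1.54 and 1.69 FPKM in the floxed kidneys, against 3.61, 12.35 and 11.77 in the knockouts, the same single high floxed library as Ms4a1.

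Ms4a2 and Ms4a4d stayed below the filter. Ms4a2 read 0.64, 0.11 and 0.22 FPKM in the floxed kidneys, against 0.24, 0.37 and 0.15 in the knockouts, about 4.71 to 24.7 fragments for its longest transcript of 2391 nucleotides. The groups overlapped, and a difference was not detectable at this depth. Its partner in the IgE receptor, the alpha chain Fcer1a, was listed at 0 in 5 of 6 libraries, and the mast cell proteases Cpa3, Mcpt4, Tpsb2 and Cma1 read at most 0.21 FPKM. Other genes of the mast cell list, Kit, Gata2 and Hdc, which are not restricted to mast cells, read 3.25 to 18.18 FPKM. The shared gamma chain Fcer1g, which macrophages also use, was abundant at 131.61, 166.78 and 124.16 FPKM in the floxed kidneys, against 51.75, 66.95 and 98.52 in the knockouts (limma adjusted p = 0.0906). Ms4a4d read 2.83, 0.71 and 1.24 FPKM in the floxed kidneys, against 0.69, 0.75 and 0.8 in the knockouts, again with floxed replicate 1 highest and the groups overlapping.

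Genes for receptors and signalling proteins that work with Ms4a proteins were measured alongside. Of 16 listed genes 13 were tested and 12 lay below 0, with a median of -0.72, beside 65.4% of all tested genes. None passed limma after adjustment. At an unadjusted p under 0.05 there were 7, all lower, beside 16.3% of all tested genes on the lower side. Without knockout replicate 3, 8 passed as lower, beside 15.4% of all tested genes. The smallest p-values were those of Tyrobp, the adaptor of Trem2 (140.64, 188.1 and 166.77 against 53.7, 69.65 and 106.77 FPKM, limma adjusted p = 0.0757), the kinase Syk (16.36, 16.86 and 12.71 against 3.88, 6.28 and 9.73 FPKM, limma adjusted p = 0.0885) and the kinase Btk (6.47, 5.38 and 4.93 against 2.49, 2.72 and 3.86 FPKM, limma adjusted p = 0.0901). Clec7a, the partner of Ms4a4a, read 25.48, 34.88 and 27.13 FPKM in the floxed kidneys, against 7.38, 12.56 and 18.79 in the knockouts (limma adjusted p = 0.0951). Unlike Ms4a4a, it did not overlap between the groups. Tnfrsf18, the partner of Ms4a4b, read 13.24, 3.37 and 4.5 FPKM in the floxed kidneys, against 3.12, 3.92 and 4.39 in the knockouts (limma adjusted p = 0.430), high in floxed replicate 1 as Ms4a4b was.

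Beyond the 10 genes, Ms4a14 was the relative most like Ms4a7. It is the immediate neighbour of Ms4a7 in the cluster, and read 5.68, 4.29 and 4.12 FPKM in the floxed kidneys, against 1.07, 1.67 and 1.06 in the knockouts. The groups were far apart, and knockout replicate 3 was as low as replicate 1, but the gene narrowly missed the threshold (log2 fold change -1.33, SE 0.182, limma adjusted p = 0.0547). Ms4a3, Ms4a8a, Ms4a10, Ms4a15 and Ms4a20 read at most 1.07 FPKM in any library. The more distant relatives Tmem176a and Tmem176b, which lie outside the cluster, were far more abundant. Tmem176b read 1708.13, 1783.82 and 1592.85 FPKM in the floxed kidneys, against 1610.34, 1148.48 and 1446.52 in the knockouts (limma adjusted p = 0.394), with overlap between the groups, and Tmem176a overlapped as well (limma adjusted p = 0.704).

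**Figure D4:**
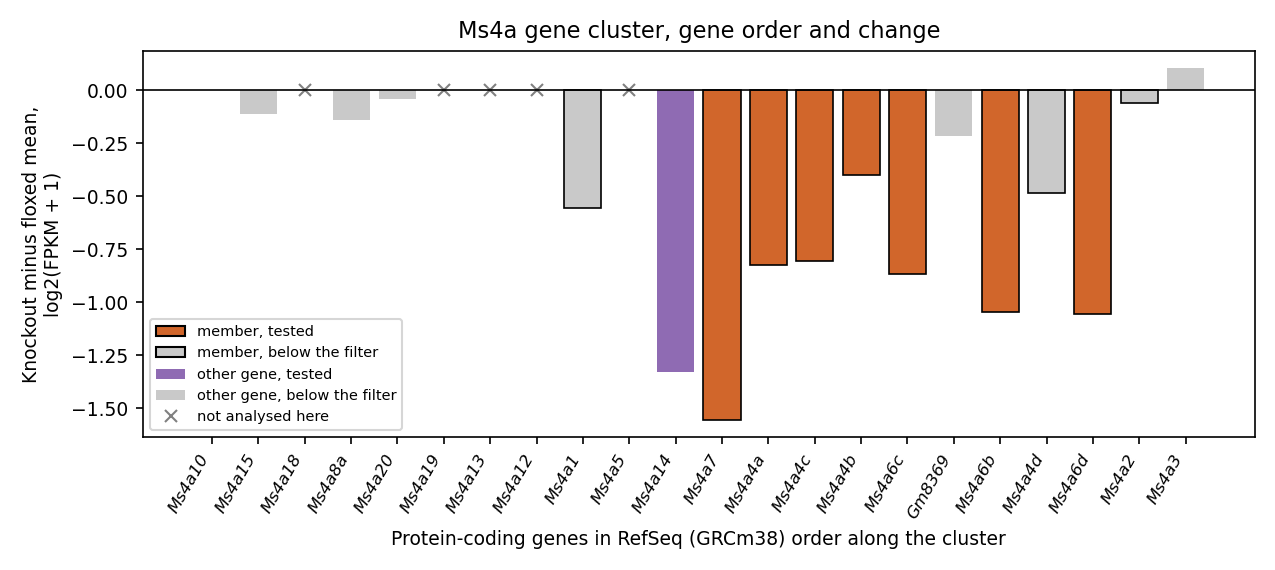
Knockout mean minus floxed mean of log2(FPKM + 1) for the protein-coding genes of the Ms4a cluster in their RefSeq order (build GRCm38, order only). Orange bars are tested members, the purple bar is Ms4a14, grey bars are genes below the filter (outlined where members) and crosses mark genes not analysed here; the neighbours Ms4a14 and Ms4a7 have the lowest bars, at -1.33 and -1.56.

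Close copies raise the question of shared reads. Between coding sequences of the members, Ms4a4b and Ms4a4c were 91.8% identical over 681 aligned bases, Ms4a4c and Ms4a4d 86.1%, Ms4a6b and Ms4a6c 85.0% and Ms4a6b and Ms4a6d 80.7%. Whole transcripts shared few exact 50-base words, 2.85% of those of Ms4a4b and 8.00% of those of Ms4a4c for that pair, and 6.11% of those of Ms4a6b and 5.58% of those of Ms4a6c for the next. Ms4a6b and Ms4a6d shared 2.44% and 2.92% of theirs, and Ms4a4c and Ms4a4d 0.478% and 0.546%. Ms4a7 shared none with any other member, and its coding sequence was at most 59.4% identical to any of them. Reads from the shared words could have been counted for either copy, so the values of Ms4a4b, Ms4a4c, Ms4a4d, Ms4a6b, Ms4a6c and Ms4a6d are uncertain. The size of that uncertainty is not known, because words with mismatches were not counted and no aligner is named in the sources used here. Only members were compared with each other. Ms4a4b and Ms4a4d were highest in floxed replicate 1, while their copy Ms4a4c was level across the floxed libraries. The Ms4a6 copies varied more alike. Pearson's r of log2(FPKM + 1) over the 6 libraries was 0.97 for Ms4a6c and Ms4a6d. It was 0.91 for Ms4a6b and Ms4a6c and 0.81 for Ms4a6b and Ms4a6d. The part of shared reads in these patterns was not tested.

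The likeness of the copies extends upstream of their genes. The 250 bases before the RefSeq start (build GRCm38.p6, plus strand) are shown for Ms4a6b with Ms4a6c and Ms4a4b with Ms4a4c, the pairs whose windows were the most alike of all member pairs. The expression values themselves were made on mm9. The windows are chr19:11518309-11518558 for Ms4a6b and chr19:11469118-11469367 for Ms4a6c. Capitals mark the longest stretch that both windows share, 48 bases, which ends 71 bases before the start of Ms4a6b and 2 bases before the start of Ms4a6c.
Ms4a6b: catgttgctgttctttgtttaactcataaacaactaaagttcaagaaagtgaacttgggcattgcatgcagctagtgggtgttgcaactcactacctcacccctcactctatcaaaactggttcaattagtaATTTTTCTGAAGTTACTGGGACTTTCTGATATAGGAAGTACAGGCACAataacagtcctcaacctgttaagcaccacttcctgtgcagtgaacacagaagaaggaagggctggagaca
Ms4a6c: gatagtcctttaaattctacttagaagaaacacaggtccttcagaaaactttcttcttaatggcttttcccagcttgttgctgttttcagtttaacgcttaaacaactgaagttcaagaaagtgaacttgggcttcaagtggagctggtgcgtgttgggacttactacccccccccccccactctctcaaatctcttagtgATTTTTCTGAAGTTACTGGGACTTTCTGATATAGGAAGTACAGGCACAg
The windows are chr19:11443308-11443557 for Ms4a4b and chr19:11407411-11407660 for Ms4a4c. Capitals mark GAGGAA, the core of the site of the myeloid and B cell factor PU.1, which begins 64 bases before the start of Ms4a4b and 61 bases before that of Ms4a4c.
Ms4a4b: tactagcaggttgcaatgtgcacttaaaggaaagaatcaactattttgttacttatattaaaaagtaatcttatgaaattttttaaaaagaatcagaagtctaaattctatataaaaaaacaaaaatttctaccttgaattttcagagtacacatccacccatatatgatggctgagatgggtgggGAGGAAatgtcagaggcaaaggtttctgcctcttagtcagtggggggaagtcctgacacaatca
Ms4a4c: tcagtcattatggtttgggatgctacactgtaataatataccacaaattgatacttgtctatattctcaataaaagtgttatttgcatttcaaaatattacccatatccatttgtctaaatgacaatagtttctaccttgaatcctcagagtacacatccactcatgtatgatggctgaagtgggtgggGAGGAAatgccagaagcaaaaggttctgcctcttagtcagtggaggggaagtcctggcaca
Aligned end to end, the Ms4a6 windows were 85.1% identical over 175 aligned bases and the Ms4a4 windows 70.0% over 243. Of the 8 members with a window (9 windows, 2 of them for Ms4a7), these 2 held GAGGAA on either strand, as did 23.3% of 32851 windows of all genes. The ETS-IRF composite element, searched on either strand, was in none of the 8 and in 2.30% of all windows. A match of letters is a description and no evidence of binding.

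Across the 6 libraries the members grouped by pattern. Pearson's r of log2(FPKM + 1) was 0.97 between Ms4a6c and Ms4a6d, 0.93 between Ms4a4c and Ms4a6b, 0.92 between Ms4a4a and Ms4a6d and 0.89 between Ms4a7 and Ms4a4c. Ms4a4b did not exceed 0.43 with any other tested member. The points share genotype, library and depth, so these values are descriptions of 6 libraries. Among tested genes with mean FPKM of at least 5, those most like Ms4a6c included Trem2 (r = 0.996) and the mannose receptor Mrc1 (r = 0.995), behind Zfp385a, Mapk1ip1l and Rcn1. Those most like Ms4a4b were Plaat3, Pcnt, Ctsw, Zfp101 and Cd3g, the last a chain of the T cell receptor complex (r = 0.986). Those most like Ms4a7 were Ndn, Gpatch4, Sirt2, Wtip and Foxj1 (r from 0.993 to 0.996). Those most like Ms4a6d were Gda, Fcgr2b, Mmp7, Ormdl3 and Ifitm1. Ms4a4a was most like Polr2d, N4bp1, Rsl1d1, Slc10a3 and Cxcl2. For Ms4a6b the genes were Cnot3, Gemin8, Snapc3, Adam19 and Cnpy3, and for Ms4a4c Rsu1, Plekho1, Arhgap22, Tmem184c and Fgl2. Each gene was picked as among the highest of many over only 6 libraries, which favours a high r, so these names do not assign a member to a cell type.

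Markers of other cell types also differed between the libraries, and their part in the Ms4a values was not tested. Pan-leukocyte genes such as Ptprc (CD45) were lower in all 6 of 6 tested, with a median of -0.95 and summed FPKM of 374 to 624 in floxed and 183 to 340.5 in knockout libraries. Dendritic cell genes were lower in 9 of 9 (median -0.79), monocyte genes in 8 of 11 (-0.64), neutrophil genes in 5 of 6 (-0.79), fibroblast genes in 10 of 10 (-1.72) and endothelial genes in 8 of 8 (-0.41). Cytotoxic cell genes were lower in 2 of 6 (0.02) and proximal tubule genes in 0 of 9 (1.27). Of all tested genes 65.4% were lower (-0.12), so such counts alone say little of a cell type. Of the mast cell list only Kit, Hdc and Gata2, which are not restricted to mast cells, were tested, and 0 of 3 were lower (0.10). Knockout replicate 3 departed from these medians: its median difference from the floxed mean was -0.05 for monocyte, 0.43 for neutrophil and -0.02 for proximal tubule genes, and its monocyte sum, 323 FPKM, lay above the floxed range of 205 to 295 FPKM. In these lists 1 gene passed limma, the fibroblast gene Dpt, which fell, and the rest had adjusted p of 0.0547 or more. The call of Dpt was lost in 11 of 13 other settings. Without knockout replicate 3 the genes past the threshold were 9 fibroblast, 7 dendritic cell, 6 pan-leukocyte, 4 monocyte and 1 endothelial gene on the lower side and 8 proximal tubule genes on the higher side. Of all 13390 tested genes, 15.4% passed as lower and 1208 genes as higher without that library. At an unadjusted p under 0.05, which 16.3% of all tested genes reached on the lower side, there were 6, 9, 4, 0, 8 and 2 lower genes in the pan-leukocyte, dendritic cell, monocyte, neutrophil, fibroblast and endothelial lists, 0 in the cytotoxic and mast cell lists and 5 higher genes in the proximal tubule list. In either direction 3303 of all 13390 tested genes had an unadjusted p under 0.05.

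**Figure D5:**
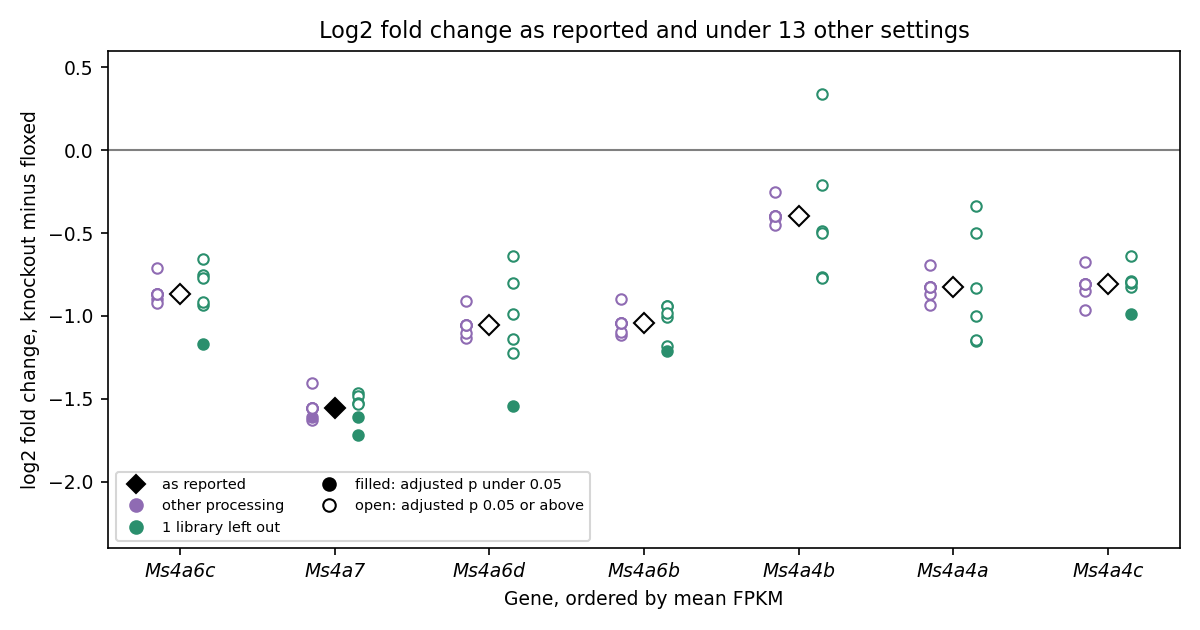
Log2 fold change (knockout minus floxed) of the 7 tested Ms4a genes as reported (diamonds), under other processing (purple) and with 1 library left out (green); filled symbols have a limma adjusted p under 0.05. Ms4a7 stays between -1.72 and -1.40, and Ms4a4b crosses 0 in 1 setting, without floxed replicate 1.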

How the data were processed

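RNA of 6 kidney libraries was measured by sequencing. TRIzol extraction and an Illumina library protocol were used, per the labels' protocols. The authors deposited 1 FPKM value per gene and library, per the file headers, with 2 decimals. The submitters' processing notes name the mm9 build. No aligner, counter, annotation or strand setting is given in the sources used here. The table holds 18849 genes. Groups came from the sample titles, age and days of obstruction from the design text.

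Genes that reached 1 FPKM in 3 or more of the 6 libraries were kept, and log2(FPKM + 1) was fitted with limma 3.58.1 (R 4.3.3), using a mean-variance trend and a single group term. Tests were two-sided, with Benjamini-Hochberg adjustment over all genes tested. The fit was tested on simulated data. Python 3.11.15, pandas 2.3.3, biopython 1.88 and matplotlib 3.10.9 did the rest. Depth was fitted from low values of transcripts of 300 to 2000 nucleotides, as the best fitting of many depths tried. At that depth 62.6% to 65.8% of the values came within 0.2 of whole fragments. Part of that share comes from the choice of depth, and part would arise without any spacing, so it is no independent check. Fragment numbers are approximate, and intervals from the depth would cover counting error only. Gene order, starts and upstream sequence came from RefSeq (GRCm38.p6), transcripts from GENCODE M21. Global alignments gave identities over aligned bases.

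The members, the 14 gene lists and the tests were chosen with earlier results of these data known. By rule, the text names all members, other family genes, Abl1, Cdh16, the 5 genes most like a member, and up to 3 genes of smallest p for the lists it describes in full. Clec7a, Tnfrsf18, Fcer1a, Fcer1g, Cd79a, Kit, Gata2, Hdc, Ptprc, Dpt, Tcf21, Cd163, Timd4, Lyve1, Cd209f and the mast cell proteases were named outside that rule after their values were seen. Ms4a20 was matched by its identifier. Alternatives were another pseudocount, other filters, median-ratio and TPM scaling, no trend, a replicate block and leaving out each library.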

Additional observations from a re-analysis of the deposited data

How the results depend on the processing

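All 7 tested members kept their direction in all 13 alternatives, except that Ms4a4b went from -0.40 to 0.34 without floxed replicate 1 (-0.77 to 0.34 over the fits with 1 library left out). Ms4a4a went from -0.83 to -0.34 without knockout replicate 1 and to -0.50 without floxed replicate 2, and Ms4a6d from -1.06 to -0.64 without knockout replicate 1. Ms4a7 passed limma with TPM scaling, without floxed replicate 1 and without knockout replicate 3. The number of members past the threshold, 1 as reported, was 0 with a pseudocount of 0.1, without a filter, with a filter of 5 on the mean FPKM, with median-ratio scaling or without trend. Each time 4 members had an unadjusted p under 0.05, of 10 tested without a filter and of 7 otherwise. Among all genes 2493 of 10275 reached that with the filter of 5, 3843 of 18849 without a filter and 3266 to 3327 of 13390 in the others. The number of genes past the threshold, 9 as reported, was 1, 0 (3843 at an unadjusted p under 0.05), 1, 1 and 1 in those settings, in the order first named. With 1 library left out it ranged from 0 (without floxed replicate 2 or 3, with 2298 and 2146 at an unadjusted p under 0.05) to 3271 (without knockout replicate 3), and the members from 0 to 5. In leave-one-out fits a pair of libraries stands for 1 group and is assumed to vary as the others do.

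The groups share replicate numbers, but nothing says that they pair the mice, and deviations from the group means correlated at -0.13, -0.07 and 0.03 for the same numbers. With a replicate block 2 genes and 0 members passed limma (at an unadjusted p under 0.05, 6 of 7 members and 2818 of all 13390 genes), and Ms4a7 had an adjusted p of 0.0784. The causes of these changes were not tested. At this depth Ms4a1 rests on about 4.10 to 18.8 fragments in each library but floxed replicate 1, and Ms4a2 on about 4.71 to 24.7.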
